A study of Mus musculus with 18 samples.

Results

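The 10 genes described here are immediate early genes, a class of genes that cells switch on within minutes of a stimulus without making new protein first. They were chosen by name: Ier2, Ier3, Ier5, Egr1, Egr2, Egr3, Nr4a1, Csrnp1, Plk2 and Plk3, out of 19454 named genes on the array. The choice was made with earlier results of these data known. Each of the 10 had 1 row in the deposited table. In RefSeq (GRCm38.p6) the polo-like kinase genes lie at chr13:110395044-110400844 (Plk2) and chr4:117128655-117133963 (Plk3). The Ier genes lie at chr8:84661331-84662852 (Ier2), chr17:35821713-35822911 (Ier3) and chr1:155096367-155099636 (Ier5). The zinc finger genes Egr2 and Egr3 lie at chr10:67534469-67542188 and chr14:70077317-70082613, Nr4a1 at chr15:101253902-101274795 and Csrnp1 at chr9:119971163-119984742, and Egr1 is on chromosome 18. Each array row summarises its gene as a whole.

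Primary response mRNAs of this kind are usually made in a short burst and lost quickly, so that their level follows transcription closely. Many of them carry AU-rich elements, which bind proteins that shorten the poly(A) tail and start decay. One such protein is tristetraprolin (TTP, encoded by Zfp36), which macrophages make after stimulation and which the kinase p38 holds in check. Macrophages exposed to lipopolysaccharide (LPS, a component of bacterial cell walls) induce early genes through NF-kB, serum response factor and cAMP response element binding factors.

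The samples were macrophages grown from C57Bl/6 bone marrow in medium with M-CSF, either wild type (WT) or TTP-/- (KO). All of them received LPS for 3 h, after which the medium was exchanged for one with actinomycin D, which blocks transcription, and SB203580, which inhibits p38, for 0, 45 or 90 min. Each of the 6 groups of genotype and time held 3 arrays. Every group thus carries the LPS response. Time without transcription cannot be told apart from time with the p38 inhibitor or time since the medium was exchanged. The deleted part of Zfp36 is not given in the sources used here. Nor do the labels tie the replicates to separate animals or cultures. The p-values therefore describe the spread of these arrays, and that spread may be technical.

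The labels name the source as bone marrow derived macrophages but the cell type as bone marrow cells. All 8 macrophage markers, such as Csf1r (mean log2 signal 10.2), Cd68 (10.9) and Lyz2 (12.03), lay at least 1 log2 above the signal limit of 3.03, the median of all named rows on the array. Of 7 neutrophil markers only S100a8 reached the limit, at 3.20 in its highest group, and none of the 4 T cell or 3 measured B cell markers did. Of 6 fibroblast or stroma markers 4 reached it, Col1a1 (4.36), Pdgfrb (4.31), Col1a2 (3.98) and Col3a1 (3.62) in their highest groups, while Dcn and Lum did not. Of 4 dendritic cell markers Zbtb46 (3.39) and Ccr7 (3.05) reached it, and of 4 endothelial markers Kdr (5.20). The part of these cells in the results was not tested. The summed level of the macrophage markers ranged from 13.2 to 13.7 over the 18 arrays on the log2 scale.

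A pair of arrays ran against its time labels, and this touches the KO results at 45 and 90 min. Of the 125 genes that fell in WT over 90 min, 119 are not among the 10 early genes. Within replicates 1, 2 and 3 of WT, 115, 117 and 107 of these 119 genes were lower at 90 min than at 45 min. In KO the counts were 95, 8 and 102. The KO replicate 2 array labelled 90 min thus lay above the one labelled 45 min for nearly all of these genes, with a median difference of 0.53 on the log2 scale, against -0.35 and -0.47 in KO replicates 1 and 3. The arrays were used as labelled, and the KO results that rest on them are also given without both, an alternative chosen after seeing the data. The order of falling genes led to that choice, which favours larger KO falls at 90 min and smaller errors. Its p-values are therefore descriptive. The replicates also fell into 2 series by the sample numbers in their titles, with replicate 3 of every group in series A and replicates 1 and 2 in series B.

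**Figure D1:**
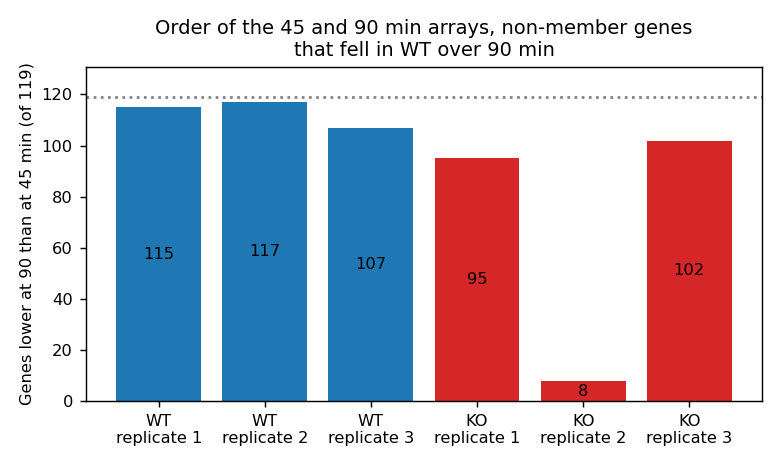
Number of genes, of the 119 that fell in WT over 90 min and are not among the 10 early genes, whose log2 signal was lower at 90 min than at 45 min within 1 replicate number. Each bar is 1 replicate of 1 genotype, and the dotted line marks 119 genes. KO replicate 2 has 8 such genes, where the other bars hold 95 to 117.

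The sequences just before the transcription start are shown for the 4 genes with the largest fall in WT, to show which known sites for LPS-responsive factors each promoter holds. They come from RefSeq (assembly GRCm38.p6), which matched 7 of the 10 genes. Each run gives the 250 bases before the start on the strand of the gene, with no transcribed base, and capitals mark the motif matches described after it. The windows are chr13:110394794-110395043 (plus strand) for Plk2, chr17:35821463-35821712 (plus strand) for Ier3, chr1:155099637-155099886 (minus strand) for Ier5 and chr9:119984743-119984992 (minus strand) for Csrnp1.
Plk2: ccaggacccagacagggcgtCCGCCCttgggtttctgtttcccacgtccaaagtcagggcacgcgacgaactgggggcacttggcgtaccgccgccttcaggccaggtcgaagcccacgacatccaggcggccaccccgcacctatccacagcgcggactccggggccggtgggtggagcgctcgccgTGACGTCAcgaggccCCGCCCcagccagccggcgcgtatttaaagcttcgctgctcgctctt
Ier3: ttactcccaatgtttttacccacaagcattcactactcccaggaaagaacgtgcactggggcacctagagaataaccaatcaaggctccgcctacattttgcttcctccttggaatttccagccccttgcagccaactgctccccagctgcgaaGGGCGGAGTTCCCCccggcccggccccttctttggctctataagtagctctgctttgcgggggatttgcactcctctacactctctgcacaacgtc
Ier5: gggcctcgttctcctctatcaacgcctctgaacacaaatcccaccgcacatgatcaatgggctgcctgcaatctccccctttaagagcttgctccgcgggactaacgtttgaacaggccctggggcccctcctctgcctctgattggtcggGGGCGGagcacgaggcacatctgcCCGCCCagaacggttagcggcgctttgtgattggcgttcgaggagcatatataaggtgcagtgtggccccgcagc
Csrnp1: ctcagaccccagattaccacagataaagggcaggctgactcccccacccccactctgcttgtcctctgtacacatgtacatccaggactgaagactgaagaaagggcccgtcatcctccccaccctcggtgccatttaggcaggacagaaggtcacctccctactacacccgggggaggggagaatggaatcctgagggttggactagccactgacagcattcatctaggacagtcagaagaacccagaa

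The Plk2 window held a cAMP response element, TGACGTCA, 62 to 55 bases before the start. This motif occurs in 1.55% of the 32851 windows of the same length in the RefSeq table. The Ier3 window held a kappa-B site, GGAGTTCCCC, 92 to 83 bases before the start, a motif found in 3.9% of windows. It overlapped a GC box, GGGCGG, at 96 to 91 bases, and GC boxes were also present in the windows of Plk2 (2 matches) and Ier5 (2 matches), as in 32.7% of all windows. The promoter table gives 4 start sites for Csrnp1. The window before the outermost one, printed here, held none of the motifs searched, while of the inner windows 1 held 5 GC boxes and 1 held 2 AP-1 sites. Nor did any of the 4 printed windows hold a CArG box (in 1.47% of windows), an AP-1 site TGANTCA (6.75%), an EGR site GCGTGGGCG (0.536%) or a TATAAA box (12.4%), on either strand. The promoter table gives 5 start sites for Egr2, and the windows of 4 of them held a CArG box, the site of serum response factor. The windows before the starts at 67537869 and 67537870 overlap almost wholly, and the window before 67537930 overlaps most of both. These windows may share the same box. The window before the outermost start held none. A match describes letters in this window and is not a measurement of binding, and all arrays were taken from cells that had received LPS.

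The first question was which of these mRNAs were lost once transcription stopped in WT macrophages. Over 90 min, 6 of the 10 genes fell in WT: Plk2, Ier3, Csrnp1, Ier5, Egr2 and Ier2. Across all genes tested, 1.22% fell (125 of 10258, limma, adjusted p below 0.05). Of the other 4, Plk3 and Egr3 were tested and not called, and Egr1 and Nr4a1 stayed below the signal limit in every group mean and were not tested. The same 6 also fell without KO replicate 2 at 45 and 90 min, beside 1.38% of all genes. The median log2 change of the 8 tested members was -1.69, beside -0.02 over all genes. RMA brings all arrays to a common distribution, so each change is measured against the average mRNA of its array, and less RNA per cell and fewer cells cannot be told apart.

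Plk2 encodes a polo-like kinase that acts in centriole duplication and stress responses. Its log2 signal in WT replicates 1, 2 and 3 was 7.85, 7.64 and 7.78 at 0 min. It was 6.57, 6.41 and 6.08 at 45 min and 4.41, 3.75 and 4.40 at 90 min. The 3 times did not overlap, and the signal dropped further at each step in every replicate. Over 90 min the log2 signal of Plk2 fell by 3.57 ± 0.43 (SE, n = 3 arrays a group, limma adjusted p = 0.00021), which left 8.41% of the starting signal. Counted from the lowest log2 change, Plk2 stood at place 3 of 10258 genes. The part from 45 to 90 min was -2.17 ± 0.43 and from 0 to 45 min -1.40 ± 0.43 (SE), and the later part had the lowest value of all genes tested. By replicate the later part was -2.17, -2.67 and -1.68 and the earlier part -1.28, -1.22 and -1.70, so that replicates 1 and 2 lost more in the later part and replicate 3 about the same in both.

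Ier3, also known as IEX-1, encodes a stress-inducible regulator of cell survival. In WT its log2 signal was 5.77, 6.07 and 6.10 at 0 min, 4.57, 4.13 and 4.41 at 45 min and 3.65, 3.51 and 4.16 at 90 min. The 0 min arrays lay above all later ones, while the 45 and 90 min arrays overlapped by 1 array. Ier3 fell by 2.21 ± 0.38 over 90 min (SE, limma adjusted p = 0.00449), to 21.6% of the start.

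Ier5 encodes a nuclear protein that takes part in the heat shock response. Its WT signal was 6.34, 6.46 and 5.66 at 0 min, 5.23, 5.08 and 4.59 at 45 min and 4.25, 3.47 and 4.33 at 90 min, without overlap between times. Ier5 fell by 2.14 ± 0.35 (SE, limma adjusted p = 0.00264), leaving 22.7%. Csrnp1 encodes a nuclear protein rich in cysteine and serine that binds DNA. It went from 6.63, 6.87 and 5.50 at 0 min to 4.44, 3.85 and 4.23 at 90 min in WT, and replicate 3 started lowest. Csrnp1 fell by 2.16 ± 0.43 (SE, limma adjusted p = 0.0140). This call was lost without WT 0 min replicate 1 or 2 or WT 90 min replicate 2, with adjusted p from 0.06447 to 0.0881 (limma).

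Egr2 and Ier2 lost less of their signal. Egr2, a zinc finger transcription factor of the Egr family, stood at 4.48, 5.23 and 5.08 at 0 min and at 3.71, 3.68 and 3.65 at 90 min in WT. The 90 min arrays lay close together, with an SD of 0.030. Egr2 fell by 1.25 ± 0.20 (SE, limma adjusted p = 0.00214), to 42.1%. This call held in 30 of 31 alternative fits, with a highest limma adjusted p of 0.0603. Ier2, a nuclear early response protein, went from 4.13, 3.94 and 4.47 to 2.87, 2.58 and 3.39 in WT. Ier2 fell by 1.23 ± 0.27 (SE, limma adjusted p = 0.0306), to 42.5%. The Ier2 call was lost without WT 0 min replicate 1, 2 or 3 or WT 90 min replicate 1 or 2, with limma adjusted p from 0.0557 to 0.146. Some fits with other processing lost it too, and it held in 23 of 31 alternative fits. The 90 min mean of Ier2 in WT, at 2.95, lay below the signal limit of 3.03. Its 90 min mean of 2.95 lay below the signal limit of 3.03, and those of Egr2 (3.68), Ier3 (3.77) and Ier5 (4.02) lay within 1 of it. These falls may be limited by background and may be larger than the values show. That was not tested, since the limit is a median of rows and not a measured background, and some rows lay far lower (Lum 1.26, Ly6g 1.56).

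**Figure D2:**
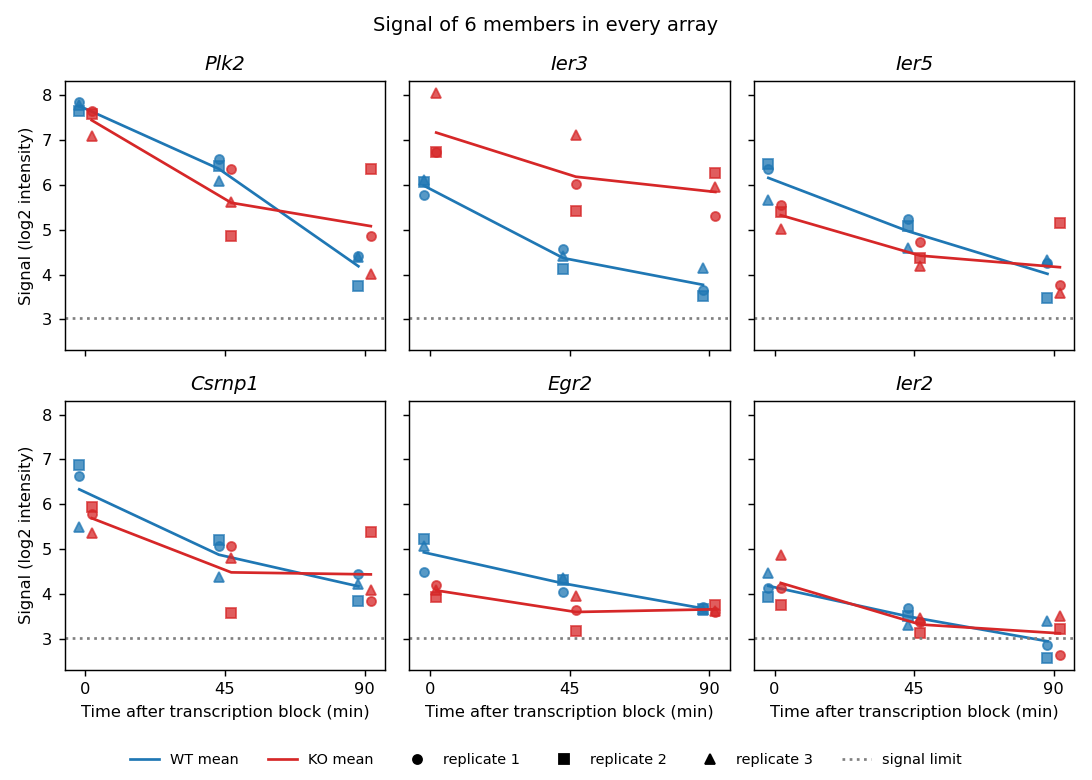
Log2 intensity of the 6 genes that fell in WT, against time after the transcription block in min. Points are single arrays, with the shape giving the replicate, lines join group means (WT blue, KO red), and the dotted line is the signal limit of 3.03. Ier3 lies higher in every KO array than in every WT array of the same time, and the KO 90 min point of replicate 2 lies above that of 45 min for all 6 genes.

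None of the other 4 genes was called in either genotype, and Egr1 and Nr4a1 were not tested. Egr1, the founding Egr factor, had group means of 2.40 to 2.77, and Nr4a1, an orphan nuclear receptor, of 2.59 to 3.00, all below the signal limit. Egr3 lay between 3.44 and 4.20 in all 18 arrays and changed by 0.22 ± 0.18 in WT and 0.10 ± 0.18 in KO over 90 min (SE, limma adjusted p = 0.840 and 0.9998). Plk3, a polo-like kinase related to Plk2, changed by -0.15 ± 0.62 in WT and -0.12 ± 0.62 in KO (SE). The wide error of Plk3 came with its level in 1 series. In KO replicate 3, which belongs to series A, Plk3 stood at 5.35, 4.97 and 5.41 at 0, 45 and 90 min, while the 6 KO arrays of series B lay between 2.62 and 3.58. WT replicate 3 was also the highest WT array at each time, at 3.96, 3.52 and 3.75. KO minus WT was 1.39, 1.45 and 1.66 in series A and between -0.42 and 0.69 in series B.

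**Figure D3:**
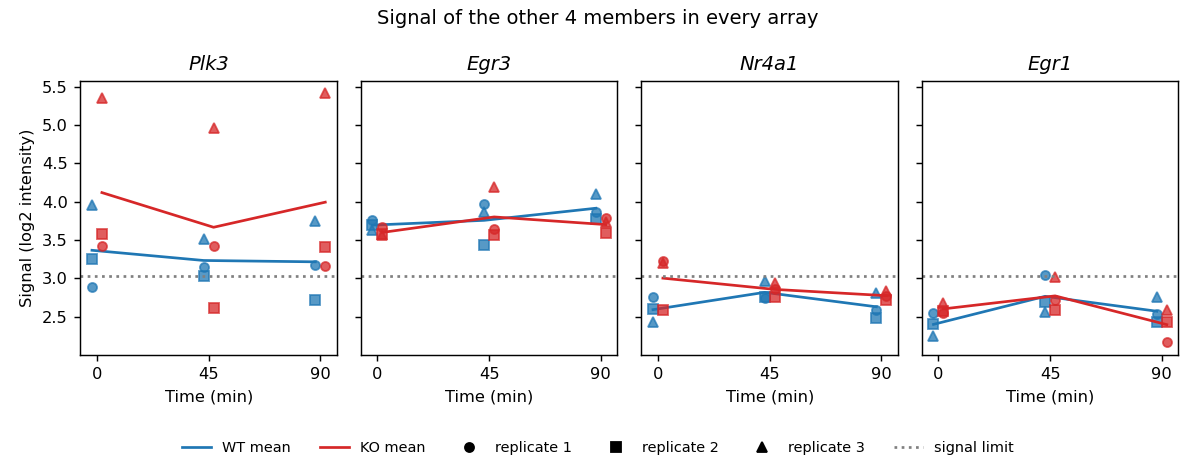
Log2 intensity of Plk3, Egr3, Nr4a1 and Egr1 in every array, against time in min, with symbols as for the falling genes. The 3 KO arrays of replicate 3 stand apart for Plk3 at 4.97 to 5.41, and the group means of Nr4a1 and Egr1 lie below the dotted signal limit of 3.03.

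At 45 min none of the 8 tested members passed the threshold in either genotype in the fit without a block. In WT, 0.127% of all genes fell by then, and in KO 0.0487% did (limma). At an unadjusted p under 0.05, 6 of the 8 members were lower in each genotype, as were 2.51% of all genes in WT and 3.86% in KO. Ier3 was furthest along in WT, with a change of -1.61 ± 0.38 (SE, limma adjusted p = 0.206), and its 3 arrays at 45 min lay below its 3 arrays at 0 min. With replicate number as a block, taken to pair the arrays, Ier3 fell (limma adjusted p = 0.0297), as did 0.244% of all genes. With the series as a block its limma adjusted p was 0.0178, where 0.312% of all genes fell. The other early values in WT were -1.46 for Csrnp1, -1.40 for Plk2, -1.19 for Ier5, -0.69 for Egr2 and -0.68 for Ier2. Without KO replicate 2 at 45 and 90 min, whose spread enters the shared error, Plk2 passed in WT (limma adjusted p = 0.0458, 0.205% of all genes). In KO, Plk2 had the largest early value, -1.84 ± 0.43 (SE, limma adjusted p = 0.215), and -1.46 ± 0.30 without both arrays.

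The next comparison followed the same mRNAs in cells without TTP. Over 90 min in KO, 1 of the 10 genes fell, Plk2, where 0.224% of all genes did (23 of 10258, limma). Plk2 went from 7.65, 7.58 and 7.09 at 0 min through 6.34, 4.85 and 5.61 at 45 min to 4.87, 6.35 and 4.02 at 90 min. Replicates 1 and 3 dropped at both steps, and replicate 2 was higher at 90 min than at 45 min by 1.51. Plk2 fell by 2.36 ± 0.43 (SE, limma adjusted p = 0.0318), leaving 19.5%. This call was lost in 9 of 18 fits that left out 1 array: WT 0 min replicate 2, WT 45 min replicate 1 or 2, WT 90 min replicate 1, KO 0 min replicate 1, 2 or 3, and KO 90 min replicate 1 or 3, with limma adjusted p from 0.0504 to 0.236.

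Without KO replicate 2 at 45 and 90 min, 3 of the genes fell in KO over 90 min, beside 0.692% of all genes. These arrays were left out because falling genes ran against the time labels in them. Larger falls and smaller errors without them were thus favoured in advance, and the p-values of this fit are descriptive. Plk2 then fell by 3.00 ± 0.30, Csrnp1 by 1.72 ± 0.35 and Ier5 by 1.65 ± 0.30 (SE, limma adjusted p = 0.00011, 0.0325 and 0.0182). With all arrays, Csrnp1 changed by -1.25 ± 0.43 and Ier5 by -1.16 ± 0.35 in KO, and neither passed (limma adjusted p = 0.554 and 0.375). Ier5 ended at 3.76, 5.15 and 3.58 in KO replicates 1, 2 and 3, and Csrnp1 at 3.85, 5.37 and 4.09. Replicate 2 was the highest for both genes. At 0 min it had not stood apart, at 5.38 beside 5.56 and 5.02 for Ier5 and at 5.93 beside 5.78 and 5.36 for Csrnp1.

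Ier3 and Ier2 were also lower at 90 min in every KO replicate. Ier3 went from 6.72, 6.73 and 8.04 at 0 min to 5.31, 6.26 and 5.95 at 90 min in KO, a change of -1.32 ± 0.38 (SE, limma adjusted p = 0.325), and -1.53 ± 0.38 without replicate 2 at 45 and 90 min (0.129). Ier2 went from 4.13, 3.76 and 4.86 to 2.64, 3.22 and 3.52, a change of -1.12 ± 0.27 (SE, limma adjusted p = 0.158), and -1.17 ± 0.32 without those arrays (0.206). Neither passed in these fits. With replicate numbers taken to pair the arrays, and used as a block, Ier2 fell (limma adjusted p = 0.0296) as well as Plk2 (0.0134). Of all genes 0.546% fell in that fit. The labels do not establish this pairing. With the series as a block, Ier2, Ier3 and Plk2 fell (limma adjusted p = 0.0191, 0.0466 and 0.00765), beside 0.585% of all genes. Egr2 changed by -0.42 ± 0.20 in KO (SE, limma adjusted p = 0.931), from a start of 4.21, 3.95 and 4.09 to 3.61, 3.76 and 3.62, which lay within 1 of the signal limit. Without both arrays of replicate 2 the Egr2 change was -0.47 ± 0.21 (SE, limma adjusted p = 0.867).

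**Figure D4:**
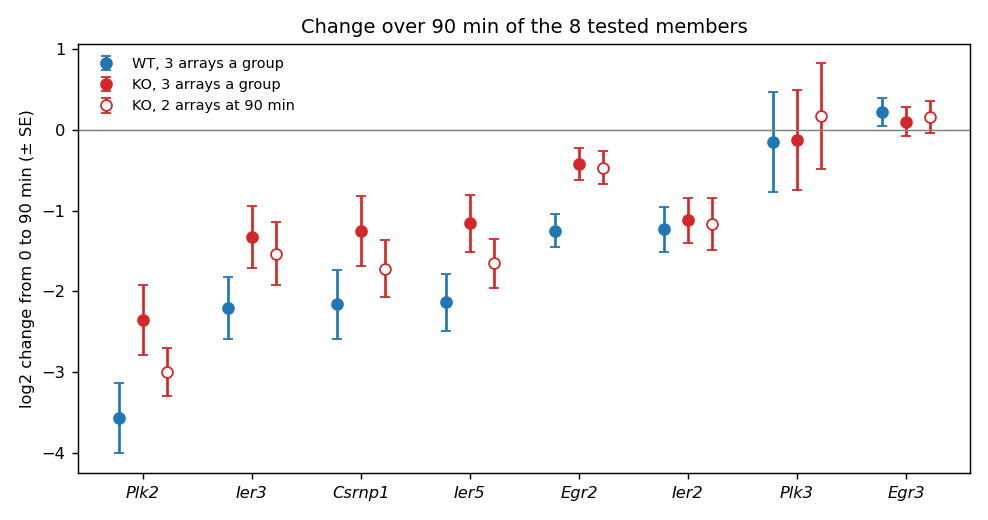
Log2 change from 0 to 90 min of the 8 tested genes, with SE from the limma fit. Filled blue points are WT and filled red points KO with 3 arrays a group, and open red points are KO without replicate 2 at 45 and 90 min. Leaving out these arrays moves Plk2 in KO from -2.36 to -3.00, closer to the WT value of -3.57.

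Straight lines through the 3 times gave relative half-lives, which are descriptive and assume a constant rate. In WT the half-life of Plk2 was 25.2 min (95% interval 19.9 to 34.4). Those of Ier3, Csrnp1 and Ier5 were 40.7 min (29.7 to 65.1), 41.7 min (29.1 to 73.0) and 42.1 min (31.6 to 63.2), which lay far inside one another's intervals. Egr2 and Ier2 had 72.1 min (53.8 to 109) and 73.0 min (49.7 to 137). In KO the values were 38.1 min (27.2 to 64.0) for Plk2, 68.0 min (41.9 to 181) for Ier3, 71.8 min (41.3 to 276) for Csrnp1, 77.6 min (48.1 to 202) for Ier5 and 80.2 min (53.0 to 165) for Ier2, and the interval of the Egr2 slope reached 0. Without KO replicate 2 at 45 and 90 min the KO half-lives were 30.1 min (24.9 to 38.1) for Plk2, 52.7 min (36.9 to 91.8) for Csrnp1, 54.2 min (39.8 to 85.0) for Ier5, 59.5 min (38.5 to 131) for Ier3 and 75.05 min (48.8 to 163) for Ier2. Tnf, the cytokine mRNA known as a TTP target, had 21.2 min (19.5 to 23.4) in WT and 202 min (108 to 1631) in KO, or 156 min (90.5 to 551) without both arrays. The half-life of Ier2, whose signal ended near the limit, depended on the scale: with an offset of 8 added to the intensities it was 124 min in WT and 130 min in KO. Other half-lives may depend on the processing too. Over all alternatives the WT change over 90 min ranged from -1.47 to -0.89 for Egr2 and from -2.40 to -1.71 for Ier3. It ranged from -2.61 to -1.77 for Csrnp1 and from -2.54 to -1.70 for Ier5. The half-life of Ier3 in KO was 104 min (54.2 to 1137) without KO 0 min replicate 3, the highest array.

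Whether loss of TTP changed the decay was tested as the difference between the changes in KO and in WT. No member passed at 45 or 90 min, where 0.00975% and 0.0195% of all genes did (1 and 2 of 10258, limma), Tnf among them with a difference of 3.79 ± 0.26 at 90 min (SE). At an unadjusted p under 0.05 without a block, 1 of the 8 members was found at 90 min, Egr2, beside 2.67% of all genes. At 45 min 0 were found, beside 1.82%. With the series as a block, Ier3, Ier5 and Plk2 were also under 0.05 at 90 min (limma unadjusted p = 0.0459, 0.0338 and 0.0464). In that fit 135 of the 10258 genes were lower and 342 higher at the same level. None of these members passed after adjustment (limma adjusted p = 0.882 for each). The median difference of the 8 at 90 min was 0.86, beside 0.04 over all genes.

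These positive values rested in large part on replicate 2. For Plk2 the difference at 90 min was 1.21 ± 0.61 (SE, 95% interval -0.08 to 2.51), and by replicate number it was 0.66, 2.67 and 0.31. Ier5 gave 0.98 ± 0.49 (interval -0.06 to 2.02), with 0.29, 2.76 and -0.11 by number. Csrnp1 gave 0.91 ± 0.61 (interval -0.37 to 2.19), with 0.27, 2.46 and -0.01, and Ier3 gave 0.89 ± 0.54 (interval -0.26 to 2.03), with 0.71, 2.09 and -0.15. In all 4 genes replicate 2 was by far the highest, and replicate 3 was at or below 0 in all but Plk2. Without both KO arrays the differences were 0.58 for Plk2, 0.48 for Ier5, 0.44 for Csrnp1 and 0.68 for Ier3. Limma adjusted p values were 0.999 for each of these genes with and without the arrays. The intervals include 0 and also values above 2, so these arrays do not show the decay of Plk2, Ier5, Csrnp1 or Ier3 to be alike in the 2 genotypes.

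Egr2 differed from these 4 in how its difference arose. Its decay difference of 0.83 ± 0.28 (SE, interval 0.23 to 1.43, limma adjusted p = 0.999) was 0.17, 1.36 and 0.96 by replicate number and 0.78 without both KO arrays. It came with a lower starting level in KO rather than a higher end. At 0 min the KO arrays, 4.21, 3.95 and 4.09, lay below the WT arrays, 4.48, 5.23 and 5.08, and at 90 min both genotypes lay between 3.61 and 3.76. The Egr2 means at 90 min lay only 0.65 (WT) and 0.63 (KO) above the signal limit. Whether background bounds this difference was not tested. Ier2 gave 0.11 ± 0.39 and Plk3 0.03 ± 0.87 at 90 min (SE), and 0.06 and 0.32 without both KO arrays. At 45 min the differences were 0.63 for Ier3, 0.29 for Ier5, 0.25 for Csrnp1, 0.21 for Egr2, -0.25 for Ier2 and -0.44 for Plk2. Without both KO arrays the 45 min differences of Ier3, Csrnp1 and Egr2 were 1.02, 0.70 and 0.42, and that of Plk2 was -0.06.

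Before the transcription block, levels in KO and WT were compared at 0 min. No gene on the array passed in this comparison (0% of 10258, limma), and at an unadjusted p under 0.05, 390 genes were lower and 387 higher in KO, 7.57% in all. With replicate number as a block, 13 genes were lower and 19 higher (0.312%, limma), and no member was among them, Egr2 and Ier3 having limma adjusted p of 0.0836 and 0.127. Within series B 9.17% of genes passed, and without WT 0 min replicate 3 7.95% did, Egr2 among them as the only member each time (limma adjusted p = 0.0485 and 0.0429). Of the 8 tested members 3 had an unadjusted p under 0.05: Ier3, higher in KO, and Egr2 and Ier5, lower. Ier3 stood at 6.72, 6.73 and 8.04 in KO and 5.77, 6.07 and 6.10 in WT, a difference of 1.18 ± 0.38 (SE, limma adjusted p = 0.633) or 2.27-fold. Egr2 differed by -0.85 ± 0.20 and Ier5 by -0.83 ± 0.35 (SE, limma adjusted p = 0.243 and 0.655). The WT and KO arrays did not overlap for these 3 genes, as for 3.15% of all genes with KO above and 7.14% with KO below. The differences for the rest were -0.64 for Csrnp1, -0.32 for Plk2, 0.07 for Ier2 and -0.10 for Egr3. Plk3 differed by 0.75 ± 0.62 (SE, limma adjusted p = 0.799), and by 0.54, 0.32 and 1.39 in replicates 1, 2 and 3. The targeted gene Zfp36, itself an early gene, stood at 7.95, 7.86 and 7.12 in WT and 6.25, 6.75 and 6.81 in KO, so its mRNA was still measured in KO, and the array does not check the genotype.

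Ier3 kept its higher level in KO through the course. The KO arrays lay above the WT arrays at 45 min, at 6.02, 5.41 and 7.11 against 4.57, 4.13 and 4.41, and at 90 min, at 5.31, 6.26 and 5.95 against 3.65, 3.51 and 4.16. KO was above WT without overlap for 5.94% of all genes at 45 min and 6.47% at 90 min. The difference was 1.81 ± 0.38 at 45 min and 2.07 ± 0.38 at 90 min (SE), or 3.52-fold and 4.19-fold, with no test at these times, and only 2 and 4 of the 10258 genes had a higher difference. Without KO replicate 2 it was 2.20 and 1.86. By replicate number it was 0.95, 0.65 and 1.94 at 0 min, 1.46, 1.29 and 2.70 at 45 min and 1.67, 2.75 and 1.79 at 90 min. In descending order the Ier3 group means ± SD (n = 3) were 7.16 ± 0.76 in KO at 0 min, 6.18 ± 0.86 in KO at 45 min, 5.98 ± 0.18 in WT at 0 min, 5.84 ± 0.48 in KO at 90 min, 4.37 ± 0.22 in WT at 45 min and 3.77 ± 0.34 in WT at 90 min. Arrays of neighbouring groups overlapped among the first 4 in this order, although within replicate numbers KO was lower at 45 min than at 0 min each time, with changes of -0.70, -1.31 and -0.93 (-0.98 ± 0.30 with the replicate block, SE, limma adjusted p = 0.303). WT at 45 min lay below all of these 4, and WT at 45 and 90 min overlapped by 1 array.

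**Figure D5:**
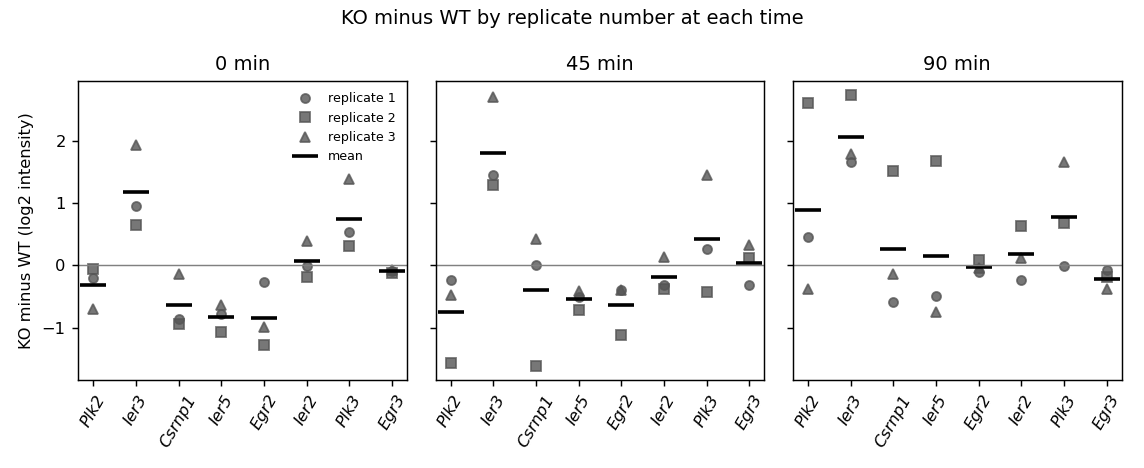
KO minus WT in log2 intensity for the 8 tested genes at 0, 45 and 90 min. Points pair the arrays of the same replicate number, with the shape giving the number, and bars are means. Ier3 is above 0 in every replicate at every time, from 0.65 to 2.75. Replicate 2 lies lowest for every gene but Egr3 at 45 min and highest for every gene but Plk3 and Egr3 at 90 min.

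Egr2 and Ier5 lay lower in KO at 0 min. Egr2 was lower in KO without overlap at 45 min too, at 3.65, 3.19 and 3.96 against 4.04, 4.31 and 4.37, as were 6.91% of all genes. By 90 min the Egr2 difference was -0.02 ± 0.20 (SE). Ier5 differed by -0.55 ± 0.35 at 45 min and 0.15 ± 0.35 at 90 min (SE), and by -0.52 and -0.35 without KO replicate 2. By replicate number the 90 min values of Ier5 were -0.50, 1.69 and -0.75, so that Ier5 stayed lower in KO in replicates 1 and 3. Plk2 differed by 0.89 ± 0.43 at 90 min (SE) and by 0.26 without that replicate.

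Among the 6 genes that fell, Ier3 had the most distinct profile over the 6 group means. Its Pearson correlation with the other 5 was 0.15 to 0.66, while those 5 correlated with one another at 0.76 to 0.98 (n = 6 groups, which share the time course and the arrays). Without both KO arrays the ranges were 0.18 to 0.66 and 0.77 to 0.98. Among the 337 tested genes with a range of at least 1 log2 over the groups, those most like Plk2 were Nfkbia, the inhibitor that ends NF-kB signalling (r = 0.998), the kinase gene Sgk1 (0.995) and Zbtb5 (0.992). Ier2 was most like Tnfaip3, a feedback inhibitor of NF-kB (0.995), Trmt10c (0.994) and Asxl1 (0.992). Ier5 was closest to the transcription factor gene Myc (0.993), Ddx28 (0.992) and Tut1 (0.992), and Csrnp1 to H2aw (0.989), Nuak2 (0.987) and the pseudokinase gene Trib1 (0.986). Egr2 was closest to Enc1 (0.996), the costimulatory ligand gene Icosl (0.992) and H2bc14 (0.990), and Ier3 to Tsc22d2 (0.984), Stambpl1 (0.968) and Rapgef5 (0.968). Without both KO arrays these values lay between 0.894 and 0.997.

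The relatives and functional neighbours of the 10 genes formed a list of 32 other early genes, 27 of which were tested. The list was chosen with earlier results of these data known, so its counts are descriptive. In WT over 90 min 5 of the 27 fell, beside 1.22% of all genes (limma), and none rose. The median change over the 27 was -0.47, beside -0.02 over all genes. The largest falls were those of Zfp36, by 3.52 ± 0.32, Dusp1, a phosphatase that switches off p38 and JNK, by 3.39 ± 0.67, Junb, an AP-1 subunit, by 2.43 ± 0.38, and Myc, by 1.08 ± 0.23 (SE, limma adjusted p = 1.15e-05, 0.0130, 0.00182 and 0.0254). In KO over 90 min 1 fell, Zfp36, by 1.61 ± 0.32 (SE, limma adjusted p = 0.0475), or by 2.10 ± 0.24 without both KO arrays (0.000413). Of all genes 0.224% fell in KO, and 0.692% without both KO arrays. The median in KO was -0.27 over the 27, beside 0.02 over all genes. At 45 min Zfp36 was the 1 gene of the list that fell in WT, beside 0.127% of all genes, and none fell in KO, beside 0.0487%. No gene of the list passed for the decay difference, beside 0.00975% of all genes at 45 min and 0.0195% at 90 min, or at 0 min, where 0% did.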

How the data were processed

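The RNA of the 18 samples was hybridised to Affymetrix Mouse Gene ST arrays. The authors normalized them by RMA with Affymetrix Expression Console, per the submitters' processing notes, in versions not given in the sources used here. From their range, the deposited intensities are linear, with array medians of 7.41 to 8.19 and maxima of 7379 to 14337, and the number of arrays limits precision.

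Log2 of each intensity was taken without an offset. Of 25138 rows, 21039 had 1 gene symbol, and the brightest row of each symbol gave 19454 genes, of which 10258 had a highest group mean at or above the signal limit (log2 3.03, intensity 8.16) and were tested. The tests used limma 3.58.1 (R 4.3.3) on 6 group means over all 18 arrays, without a block, with Benjamini-Hochberg adjustment over all tested genes within each comparison at 0.05, and the procedure was tested on simulated data. Decay differences are KO changes minus WT changes.

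Same-numbered arrays deviated together in KO between 0 and 90 min (r from 0.413 to 0.694) and between 0 and 45 min (r from 0.321 to 0.677), in WT between 0 and 45 min (r from 0.333 to 0.550), and across genotypes at 0 min (r from 0.156 to 0.369). There the numbers, which come from the labels, were taken to pair samples. For WT at 90 min (lowest -0.287) and the decay differences the numbers were not taken so. This choice came from the same data. Replicate 3 was series A in every group, so these correlations cannot tell pairing by number from the series. The first principal component (29.0% of variance) separated series A (11.97 to 30.9) from series B (-23.1 to -5.76).

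Alternatives were replicate and series blocks, series B alone, filters, an offset of 8, ribosomal centring, quantile normalization, trended and robust moderation, only the groups compared, row averages and leaving out each array. The genes and lists were chosen with earlier results of these data known. Named genes were the 10 genes, at most 4 genes past the threshold from the other early genes per comparison, Tnf, Zfp36, and the 3 tested genes most correlated with each member that passed.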

Additional observations from a re-analysis of the deposited data

How the results depend on the processing

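The 6 falls in WT at 90 min numbered 4 to 6 in every alternative run. The count of members called for KO at 90 min, 1 in the fit without a block, was 2 with the replicate block (Ier2, Plk2), 3 with the series block, 0 within series B, 0 without the filter on low values, 2 with ribosomal centring, 0 with only the groups compared and 0 to 2 when single arrays were left out. Without KO replicate 2 at 45 and 90 min it was 3, and 5 with the series block as well. The genes lower over the whole array moved too, from 23 of 10258 without a block to 56 with the replicate block and 60 with the series block. They numbered 22 within series B, 12 of 19454 without the filter, 81 with ribosomal centring and 1 with only the groups compared. Leaving out single arrays gave 2 to 63, leaving out both KO arrays 71, and the series block as well 154. For WT at 45 min the count of 0 became 1 with the replicate block, 1 with the series block, 1 within series B, 2 with only the groups compared, 0 to 1 when single arrays were left out, and 1 without both KO arrays, or 4 with the series block as well. Over all genes 13 were lower without a block, 25 with the replicate block and 32 with the series block. The number was 38 within series B, 11 with only the groups compared and 3 to 25 when single arrays were left out. Without both KO arrays it was 21, and 49 with the series block as well. For KO at 45 min the count of 0 became 1 with ribosomal centring, 0 to 1 when single arrays were left out and 1 without both KO arrays with the series block. Here 5 of all genes were lower without a block and 25 with ribosomal centring. The number was 1 to 20 when single arrays were left out and 18 without both KO arrays with the series block. For KO against WT at 0 min the count of 0 became 1 within series B, 0 to 1 when single arrays were left out and 1 without both KO arrays with the series block. Of all genes 0 passed at 0 min without a block, 941 within series B and 0 to 815 when single arrays were left out. Without both KO arrays with the series block 15 were lower and 18 higher. The calls gained by leaving out 1 array were Ier5 for KO at 90 min (limma adjusted p = 0.0142) and Plk2 for KO at 45 min (0.0228), both without KO 90 min replicate 2, and Csrnp1 for WT at 45 min (0.0366) and Egr2 at 0 min (0.0429), both without WT 0 min replicate 3. The causes were not tested. The replicate block also called Ier3 for WT at 45 min and changed no other call of a member. Changes and decay slopes of single genes were counted together over all alternatives. Of these values 2091 stayed the same, 24 lost a call, 28 gained one and 64 moved, and no called value changed sign. A change stayed the same if it kept its direction and side of the threshold, and moved if an uncalled value changed sign. A slope stayed the same if it shifted by less than the SD of the slopes of the replicates, and otherwise moved. Ribosomal centring moved the median of all genes to -0.21 for KO at 90 min, -0.22 for KO at 45 min, 0.35 for KO against WT at 0 min, -0.32 for the decay difference at 45 min and -0.22 at 90 min. Signals near the limit of 3.03 may bound the falls that can be seen in Ier2, Egr2, Ier3 and Ier5, which was not tested.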
